A study of Homo sapiens with 14 samples.

Results

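The genes described here carry out the unfolded protein response and the integrated stress response. The list holds 40 genes: 12 in the ATF4 arm, 4 stress sensors or their direct effectors, 22 in the chaperone arm downstream of ATF6 and XBP1, and 2 further members, KLHL24 and CREBRF. Members were listed by gene symbol, with no cutoff on a measured value, but earlier results of these arrays were known when the list was drawn up, so that counts over the members are a description. Of the 40, 39 had a probe set of their own among 18417 genes on the array, and all 39 passed the filter on dim genes that 11050 genes passed. PDIA3, a disulfide isomerase of the endoplasmic reticulum (ER), was read only by 2 probe sets shared with its pseudogene PDIA3P1 and has no value here.

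The arrays profiled the gastric carcinoma line MKN28 and its derivative MKN28snai1ER during epithelial-mesenchymal transition (EMT), with and without loss of ANGPTL4, a secreted regulator of lipid metabolism. Parental MKN28 cells were kept in hypoxia at 1% oxygen for 1 or 2 days with ANGPTL4-knockdown or without it, given TGFb at 10 ng/mL for 1 or 2 days with ANGPTL4-knockdown or without it, or left untreated for 2 days without knockdown. MKN28snai1ER cells carry a transgene that fuses the EMT transcription factor Snai1 to an estrogen receptor domain, which 4-hydroxytamoxifen (4-OHT) switches on. They received 4-OHT at 20 ng/mL for 2 or 4 days with ANGPTL4-knockdown or without it, or were left untreated for 4 days without knockdown. The sample labels give the knockdown without its method. The paper describes siRNA for the parental line and, for Snai1ER cells, a derived line with a doxycycline-inducible short hairpin against ANGPTL4. With such a derived line, knockdown, line and any doxycycline cannot be told apart in MKN28snai1ER. Each condition is 1 array, 14 in all. No untreated array carries the knockdown, no parental array received 4-OHT, and the arrays of the shorter exposures had no untreated array of their own day. Hypoxia and TGFb share the single untreated MKN28 array.

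The ER folds secreted and membrane proteins, and an excess of unfolded protein there sets off 3 sensors, EIF2AK3 (PERK), ERN1 (IRE1alpha) and ATF6. PERK phosphorylates the translation factor eIF2alpha, which slows protein synthesis while favouring translation of the transcription factor ATF4. Other kinases phosphorylate the same factor when amino acids, heme or antiviral defence call for it, and the shared output is the integrated stress response. IRE1alpha splices XBP1 mRNA and ATF6 is cleaved in the Golgi, and the products of both switch on chaperones and the machinery of ER-associated degradation (ERAD). Hypoxia is a known inducer of both responses. The arrays read mRNA only, and neither ATF4 translation, eIF2alpha phosphorylation nor XBP1 splicing was measured.

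The promoters of the members carry short motifs that these factors are known to read. RefSeq promoters (GRCh38.p14, 250 bases before to 50 bases after the start) were found for 36 of the 40 members, and NUPR1, PDIA3, DERL1 and DERL3 were not among the entries used. The windows were searched on both strands for the ER stress response element (ERSE: CCAAT and CCACG with any 9 bases between them), its compact form ERSE-II (ATTGG and CCACG with any 1 base between them), the core of the XBP1-bound unfolded protein response element (TGACGTG) and the C/EBP-ATF composite element read by ATF4 (CARE, TGATGNAAN). ERSE or ERSE-II stood in 9 of the 19 chaperone-arm genes with a promoter and in 0 of the 11 of the ATF4 arm, against 44 of 27305 genes (0.161%) in the whole promoter table. ERSE alone was found in 25 of those 27305 genes (0.0916%) and ERSE-II in 19 (0.0696%). CARE stood in 4 of 11 genes of the ATF4 arm (ATF3, CHAC1, CEBPG and JDP2) and in 1 of 19 of the chaperone arm (HERPUD1), against 4.45% of all genes. The XBP1-bound core was found in HYOU1 alone among the members, against 2.4% of all genes. Where a gene has several starts, a match at any of them was counted. The arms were listed by these same factors, so that the shares are a description and no test of the motifs.

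Whole windows are shown for the chaperone-arm genes HSPA5, HERPUD1 and HYOU1 and for the ATF4-arm genes CHAC1 and CEBPG, because they show a single ERSE, ERSE-II beside CARE, a doubled ERSE-II, and CARE alone. Capitals mark the motif matches, and each sequence runs 5′ to 3′ on the strand of the gene.
HSPA5 (chr9:125241294-125241593, minus strand): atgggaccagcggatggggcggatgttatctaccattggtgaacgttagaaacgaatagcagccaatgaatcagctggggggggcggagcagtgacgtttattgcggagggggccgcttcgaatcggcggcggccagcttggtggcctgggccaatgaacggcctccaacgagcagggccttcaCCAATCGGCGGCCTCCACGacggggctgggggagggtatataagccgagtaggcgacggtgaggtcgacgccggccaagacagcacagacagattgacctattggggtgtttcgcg
HERPUD1 (chr16:56931892-56932191, plus strand): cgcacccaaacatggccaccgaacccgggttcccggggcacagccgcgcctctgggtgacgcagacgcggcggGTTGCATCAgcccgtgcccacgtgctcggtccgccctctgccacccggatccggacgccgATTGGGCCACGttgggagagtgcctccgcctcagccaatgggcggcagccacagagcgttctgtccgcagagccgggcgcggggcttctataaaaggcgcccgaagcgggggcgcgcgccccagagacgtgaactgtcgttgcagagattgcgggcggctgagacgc
HYOU1 (chr11:119057156-119057455, minus strand): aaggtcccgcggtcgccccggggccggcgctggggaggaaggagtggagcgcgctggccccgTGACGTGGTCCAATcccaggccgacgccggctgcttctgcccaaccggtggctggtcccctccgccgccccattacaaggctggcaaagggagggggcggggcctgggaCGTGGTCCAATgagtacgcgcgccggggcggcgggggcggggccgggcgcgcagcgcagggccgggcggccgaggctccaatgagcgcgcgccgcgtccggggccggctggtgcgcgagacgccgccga
CHAC1 (chr15:40953221-40953520, plus strand): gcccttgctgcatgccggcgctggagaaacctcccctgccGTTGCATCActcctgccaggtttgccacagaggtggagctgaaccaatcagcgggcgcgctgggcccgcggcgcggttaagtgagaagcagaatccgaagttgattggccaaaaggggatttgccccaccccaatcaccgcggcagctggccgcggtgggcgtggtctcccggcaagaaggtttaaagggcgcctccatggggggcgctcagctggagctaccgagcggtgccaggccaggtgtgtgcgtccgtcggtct
CEBPG (chr19:33373863-33374162, plus strand): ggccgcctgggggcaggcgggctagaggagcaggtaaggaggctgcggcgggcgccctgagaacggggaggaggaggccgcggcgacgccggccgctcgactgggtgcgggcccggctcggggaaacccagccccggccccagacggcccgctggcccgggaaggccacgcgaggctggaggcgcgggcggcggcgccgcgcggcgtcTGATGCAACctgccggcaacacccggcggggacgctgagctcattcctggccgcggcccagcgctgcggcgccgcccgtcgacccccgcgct

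In HSPA5 the ERSE lay from -66 to -48, counted from the start. HERPUD1 held CARE on the opposite strand from -177 to -169 and ERSE-II from -117 to -107. HYOU1 held ERSE-II on the opposite strand at -185 to -175 and again at -79 to -69, and the first of these overlaps the XBP1-bound core at -188 to -182. Shorter stretches are shown for the other genes with an ERSE or ERSE-II and for ATF3, with 20 bases on either side of the outermost match.
XBP1 (chr22:28800583-28800641, minus strand): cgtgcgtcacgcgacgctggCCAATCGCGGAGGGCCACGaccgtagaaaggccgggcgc
HSP90B1 (chr12:103930196-103930359, plus strand): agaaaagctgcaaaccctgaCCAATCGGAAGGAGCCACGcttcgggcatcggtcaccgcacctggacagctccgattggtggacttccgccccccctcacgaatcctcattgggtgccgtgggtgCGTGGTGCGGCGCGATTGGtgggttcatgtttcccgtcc
PDIA6 (chr2:10812833-10812891, minus strand): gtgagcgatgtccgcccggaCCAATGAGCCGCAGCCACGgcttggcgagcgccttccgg
CALR (chr19:12938364-12938422, plus strand): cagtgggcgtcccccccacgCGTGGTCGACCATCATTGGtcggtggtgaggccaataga
CANX (chr5:179698758-179698816, plus strand): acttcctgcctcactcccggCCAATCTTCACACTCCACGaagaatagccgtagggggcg
CRELD2 (chr22:49918534-49918592, plus strand): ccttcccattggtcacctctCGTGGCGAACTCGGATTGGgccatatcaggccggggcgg
SDF2L1 (chr22:21642094-21642144, plus strand): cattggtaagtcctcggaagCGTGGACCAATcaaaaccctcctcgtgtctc
ATF3 (chr1:212565196-212565244, plus strand): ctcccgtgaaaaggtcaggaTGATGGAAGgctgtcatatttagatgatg

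XBP1 was the sensor-list gene with an ERSE, and HSP90B1 held a pair of them in opposite orientations. The capitals are matches of letters, and occupancy of these sites was not measured.

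The array values are log2 expression values, and the differences below are log2 differences after quantile normalization of the 14 arrays. The 2 arrays of TGFb without knockdown had deposited medians of 5.23 and 5.19, against 6 to 6.16 on the other 12, so that values as deposited are given beside TGFb results. SNAI1 lay between 8.74 and 9.78 on the MKN28snai1ER arrays and between 5.48 and 6.07 on the MKN28 arrays. The 8.74 was on the array of 4-OHT with knockdown on day 4, against 9.55 on that day without knockdown. ANGPTL4 lay between 4.97 and 5.39 on every array, below the filter, and did not check the knockdown. The array of hypoxia with knockdown on day 1 stood apart, where the differences of all genes from their mean on the remaining arrays had a standard deviation of 0.72, with 0.27 to 0.56 on the other 13. All 8 epithelial markers passed the filter, and their summed level lay between 74.9 and 84. EPCAM was steady at 11.46 to 11.96, while KRT8 ran from 9.62 to 12.46 and KRT19 from 9.14 to 11.93. The leukocyte marker PTPRC averaged 3.29, the endothelial marker PECAM1 3.67 and the fibroblast marker DCN 3.32. Of the 8 markers of other cell types, CD68, COL1A1 and ACTA2 passed the filter. The summed level of the 8 lay between 41.6 and 44.1 on all arrays, with ACTA2 from 5.71 to 8.02. A lower value can mean fewer cells of a kind or less RNA per cell, which bulk arrays cannot tell apart.

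With 1 array per condition no test is possible between a treatment and its untreated array. A gene was therefore counted as higher or lower when the difference reached 1.5-fold on each of the 2 days with the same sign, and the share of all 11050 genes that did so is given beside the first such count for each treatment.

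The largest differences among the members were on day 4 of 4-OHT. On 4-OHT without knockdown 8 of 39 members were at least 1.5-fold higher on both days than on the untreated MKN28snai1ER array and 0 were lower, against 2.33% of all genes higher and 1.21% lower. On day 4 alone 30 of 39 members were higher, against 10.8% of all genes. The ATF4 arm had a median difference of 0.45 on day 2 and 1.57 on day 4, and the chaperone arm of 0.03 on day 2 and 0.81 on day 4. Over all genes the median was 0.02 on both days. Of the 8 members higher on both days, 5 belonged to the 12 of the ATF4 arm (ATF3, CHAC1, DDIT3, NUPR1 and TRIB3) and 1 to the 21 of the chaperone arm (HERPUD1), and the other two were KLHL24 and CREBRF. Because day 2 of 4-OHT was set against an untreated array of day 4, its differences hold time in culture as well as 4-OHT. The untreated MKN28snai1ER array was itself low for DDIT3, NUPR1, TRIB3, CHAC1, HERPUD1 and CREBRF. It lay at least 1.5-fold below the untreated MKN28 array for each of them, though not for ATF3 and KLHL24.

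**Figure D1:**
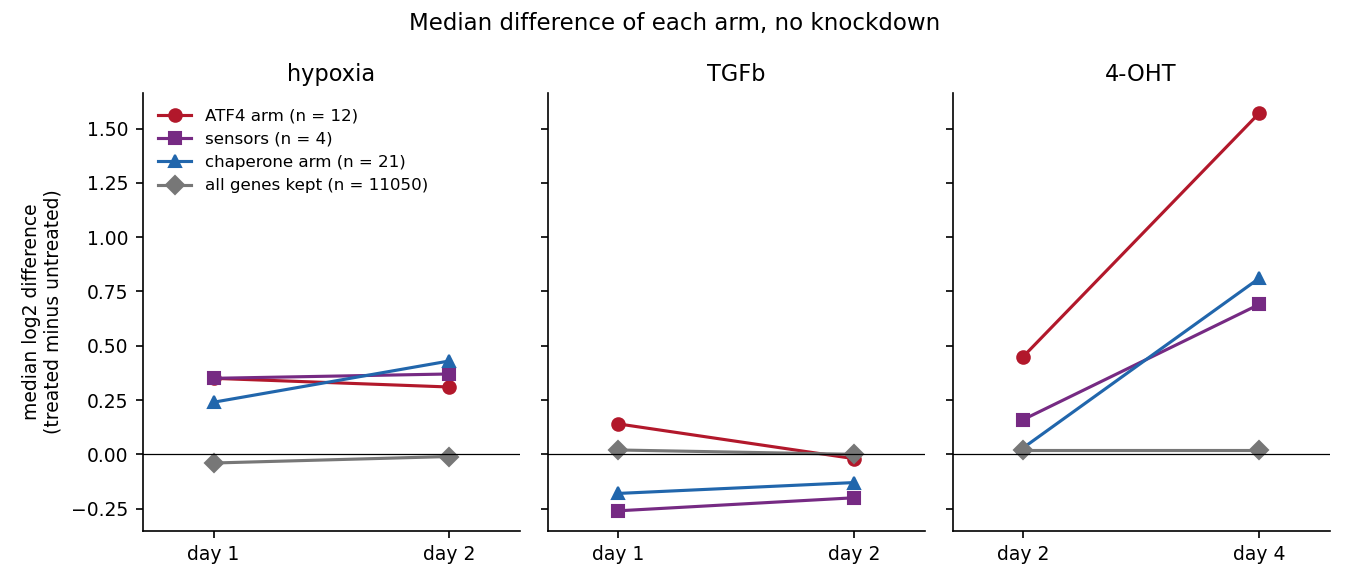
Median log2 difference between treated and untreated arrays (vertical axis) at the first and the last time point (horizontal axis) for the ATF4 arm, the sensors, the chaperone arm and all 11050 genes, without knockdown. On 4-OHT the ATF4 arm lay at 0.45 on day 2 and 1.57 on day 4, above the chaperone arm at 0.03 and 0.81, whereas on hypoxia both arms stayed between 0.24 and 0.43.

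DDIT3 encodes CHOP, the transcription factor that links prolonged ER stress to cell death. Its log2 level was 7.94 on day 2 and 10.55 on day 4 of 4-OHT, against 6.78 on the untreated MKN28snai1ER array, a 2.24-fold and a 13.7-fold difference. NUPR1, a small nuclear protein induced by many stresses, stood at 7.43 on day 2 and 10.31 on day 4 of 4-OHT, against 6.32 untreated, or 2.16-fold and 15.9-fold. These day 4 levels were the highest of all 14 arrays for both genes. ATF3, a stress-inducible repressor, was 6.73 on day 2 and 8.29 on day 4, against 6.02 untreated. CHAC1, which degrades glutathione, was 6.93 and 8.33 against 5.85 untreated. TRIB3, a pseudokinase that acts downstream of ATF4 and CHOP, was 7.66 and 8.92 against 6.92 untreated.

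Other genes of the ATF4 arm were higher on day 4 only. PPP1R15A, the phosphatase subunit GADD34 that reverses eIF2alpha phosphorylation, was 8.57 on day 2 and 10.73 on day 4 of 4-OHT, against 8.27 untreated, differences of 0.30 and 2.46. The bZIP partners CEBPB and CEBPG differed by 0.44 and 0.18 on day 2 and by 1.15 and 0.96 on day 4. SESN2, a sestrin that restrains mTORC1, differed by 0.10 and 0.67, and JDP2, another bZIP repressor, by 0.45 and 0.62. ATF4 itself, which is controlled mainly through translation, was 9.16 on day 2 and 9.56 on day 4, against 8.96 untreated, and reached 1.51-fold on day 4. ATF5, a further target of eIF2alpha phosphorylation, was the exception of the arm at -0.30 and -0.17, which left 11 of 12 higher on day 4.

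All 4 sensors were at least 1.5-fold higher on day 4 of 4-OHT, against 10.8% of all genes, and 0 of 4 on day 2, against 3.61%. XBP1, the transcription factor made after IRE1alpha splicing, showed the widest difference, with 8.35 on day 2 and 10.02 on day 4, against 7.89 untreated. EIF2AK3, ERN1 and ATF6 differed by 0.72, 0.66 and 0.64 on day 4 and by 0.03, 0.29 and -0.01 on day 2.

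In the folding part of the chaperone arm 0 of 13 genes reached 1.5-fold on day 2, against 3.61% of all genes, and 9 of 13 did on day 4, against 10.8%. DNAJB9 (ERdj4), a co-chaperone of the ER chaperone BiP, was 6.18 on day 2 and 8.45 on day 4, against 6.28 untreated. HYOU1, a large ER chaperone, was 8.26 and 10.27 against 8.17 untreated. HSPA5, which encodes BiP itself, was 11.55 and 12.48 against 11.41 untreated, a 2.10-fold difference on day 4. The day 4 array thus stood apart from day 2, which lay next to the untreated array for all 3 genes. SDF2L1, MANF, CRELD2, PDIA4 and DNAJC3, ER-resident folding factors and secreted stress proteins, differed by 1.68, 1.55, 1.33, 1.27 and 1.06 on day 4, and CALR, the chaperone calreticulin, by 0.72. DNAJB11, PDIA6, HSP90B1 and CANX stayed under 1.5-fold on day 4, at 0.52, 0.50, 0.34 and 0.18.

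The ERAD and membrane part was mixed, with 4 of 8 higher on day 4, against 10.8% of all genes. HERPUD1, which organises the ERAD ligase complex, was 10.07 on day 2 and 11.90 on day 4, against 9.34 untreated, 1.66-fold and 5.90-fold. SYVN1, the ligase, and SEL1L, its partner, differed by 0.89 and 0.69 on day 4, and the retrotranslocation factor DERL2 by 0.81. EDEM1, a mannosidase-like ERAD factor, was lower than untreated at -0.47 on day 2 and -0.30 on day 4, while DERL1 (-0.13 and -0.10), DERL3 (-0.10 and 0.02) and WFS1 (0.22 and 0.31) lay within 1.5-fold of untreated. KLHL24, a ubiquitin ligase adaptor, was 7.89 and 8.76 against 7.00 untreated, and CREBRF, a regulator of the ER-bound factor CREB3, was 7.37 and 8.36 against 6.33 untreated.

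The 9 chaperone-arm genes with an ERSE or ERSE-II had median differences of 0.10 on day 2 and 1.07 on day 4 of 4-OHT, and the 10 genes whose promoters held neither had medians of -0.10 and 0.85. The ranges on day 4 overlapped, 0.18 to 2.56 with a motif and -0.30 to 2.17 without it. On hypoxia the order was the other way round, with medians of 0.20 and 0.26 for genes with a motif and 0.54 and 0.55 for those without. These medians are a description of single arrays.

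On hypoxia without knockdown 10 of the 39 members were at least 1.5-fold higher on both days than on the untreated MKN28 array and 0 were lower, against 3.02% of all genes higher and 1.95% lower. They were ATF3, DDIT3 and PPP1R15A of the ATF4 arm, the sensor EIF2AK3, DNAJB9, MANF, HERPUD1 and SEL1L of the chaperone arm, and KLHL24 and CREBRF. Medians were 0.35 on day 1 and 0.31 on day 2 for the ATF4 arm and 0.24 and 0.43 for the chaperone arm, against -0.04 and -0.01 over all genes. The day 1 array had no untreated partner of its own day.

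DDIT3 was 9.64 on day 1 and 9.42 on day 2 of hypoxia, against 7.88 untreated. PPP1R15A was 9.87 and 9.88 against 8.10 untreated, 3.41-fold and 3.43-fold. ATF3 was 7.26 and 7.73 against 6.28 untreated. Both hypoxia arrays thus lay above the untreated array for all 3 genes, and close to each other for DDIT3 and PPP1R15A. On both days 6 members of the ATF4 arm lay within 1.5-fold of untreated: ATF4 (0.10 and 0.15), TRIB3 (0.41 and 0.48), SESN2 (0.08 and 0.12), CEBPB (0.30 and 0.11), CEBPG (0.57 and 0.48) and JDP2 (0.05 and 0.34). ATF5 and NUPR1 did so as well, at -0.45 and -0.15 for ATF5 and -0.31 and 0.29 for NUPR1. CHAC1 was 7.72 on day 1 and 7.12 on day 2, against 7.13 untreated.

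EIF2AK3 was 9.49 on day 1 and 9.33 on day 2 of hypoxia, against 8.58 untreated. XBP1 differed by 0.49 and 0.43, ATF6 by 0.22 and 0.31 and ERN1 by 0.17 and 0.32. Among folding genes DNAJB9 was 8.92 and 8.82 against 7.39 untreated, and MANF 10.28 and 10.46 against 9.57 untreated. HYOU1 reached 1.5-fold on day 2 only, at 9.66 on day 1 and 10.23 on day 2 against 9.15 untreated. HSPA5 differed by 0.39 and 0.32, and the other 9 folding genes by between -0.08 and 0.56. In the ERAD part HERPUD1 was 11.34 on both days against 10.28 untreated, and SEL1L 9.79 and 10.11 against 8.95 untreated. SYVN1 was higher on day 2 alone at 0.81, DERL2 on day 1 alone at 0.71, and EDEM1 lay at 0.57 and 0.54. DERL1 (0.13 and 0.05), DERL3 (0.06 and -0.36) and WFS1 (0.06 and 0.48) did not reach 1.5-fold. KLHL24 was 9.24 and 9.54 against 7.32 untreated and CREBRF 9.02 and 9.39 against 7.26 untreated, the widest differences of the 39 on day 2.

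Hypoxia and 4-OHT use different untreated arrays and can be set beside each other. On both days of each, 5 members (ATF3, CREBRF, DDIT3, HERPUD1 and KLHL24) were higher, which is 50% of the 10 on hypoxia and 62.5% of the 8 on 4-OHT. Over all 11050 genes 32 were higher on both, which is 9.58% of the 334 on hypoxia and 12.5% of the 257 on 4-OHT. NUPR1, CHAC1 and TRIB3 were on the 4-OHT list only, and PPP1R15A, EIF2AK3, DNAJB9, MANF and SEL1L on the hypoxia list only. The 5 on the hypoxia list only were all at least 1.5-fold higher on day 4 of 4-OHT. So were 30 of the 39 members, against 10.8% of all genes.

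On TGFb without knockdown 0 of 39 members were at least 1.5-fold higher or lower on both days than on the untreated MKN28 array, against 2.47% of all genes higher and 3.27% lower. Medians were 0.14 on day 1 and -0.02 on day 2 for the ATF4 arm and -0.18 and -0.13 for the chaperone arm. NUPR1 was 8.92 and 8.62 against 8.22 untreated, and ATF3 5.71 and 5.62 against 6.28 untreated. SYVN1 and HYOU1 were among the lowest, at -0.56 and -0.68 for SYVN1 and -0.51 and -0.60 for HYOU1. The direction depends on the scale. As deposited, the median of all genes on TGFb was -0.45 on day 1 and -0.47 on day 2, the ATF4 arm lay at -0.36 and -0.51 and the chaperone arm at -0.51 and -0.33, and 16 members were lower on both days, against 32.4% of all genes. With each array centred on its median, the median of all genes was 0.35 and 0.37, the ATF4 arm lay at 0.44 and 0.32 and the chaperone arm at 0.29 and 0.51, with 4 members higher and 1 lower on both days, against 22.5% and 1.86% of all genes.

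**Figure D2:**
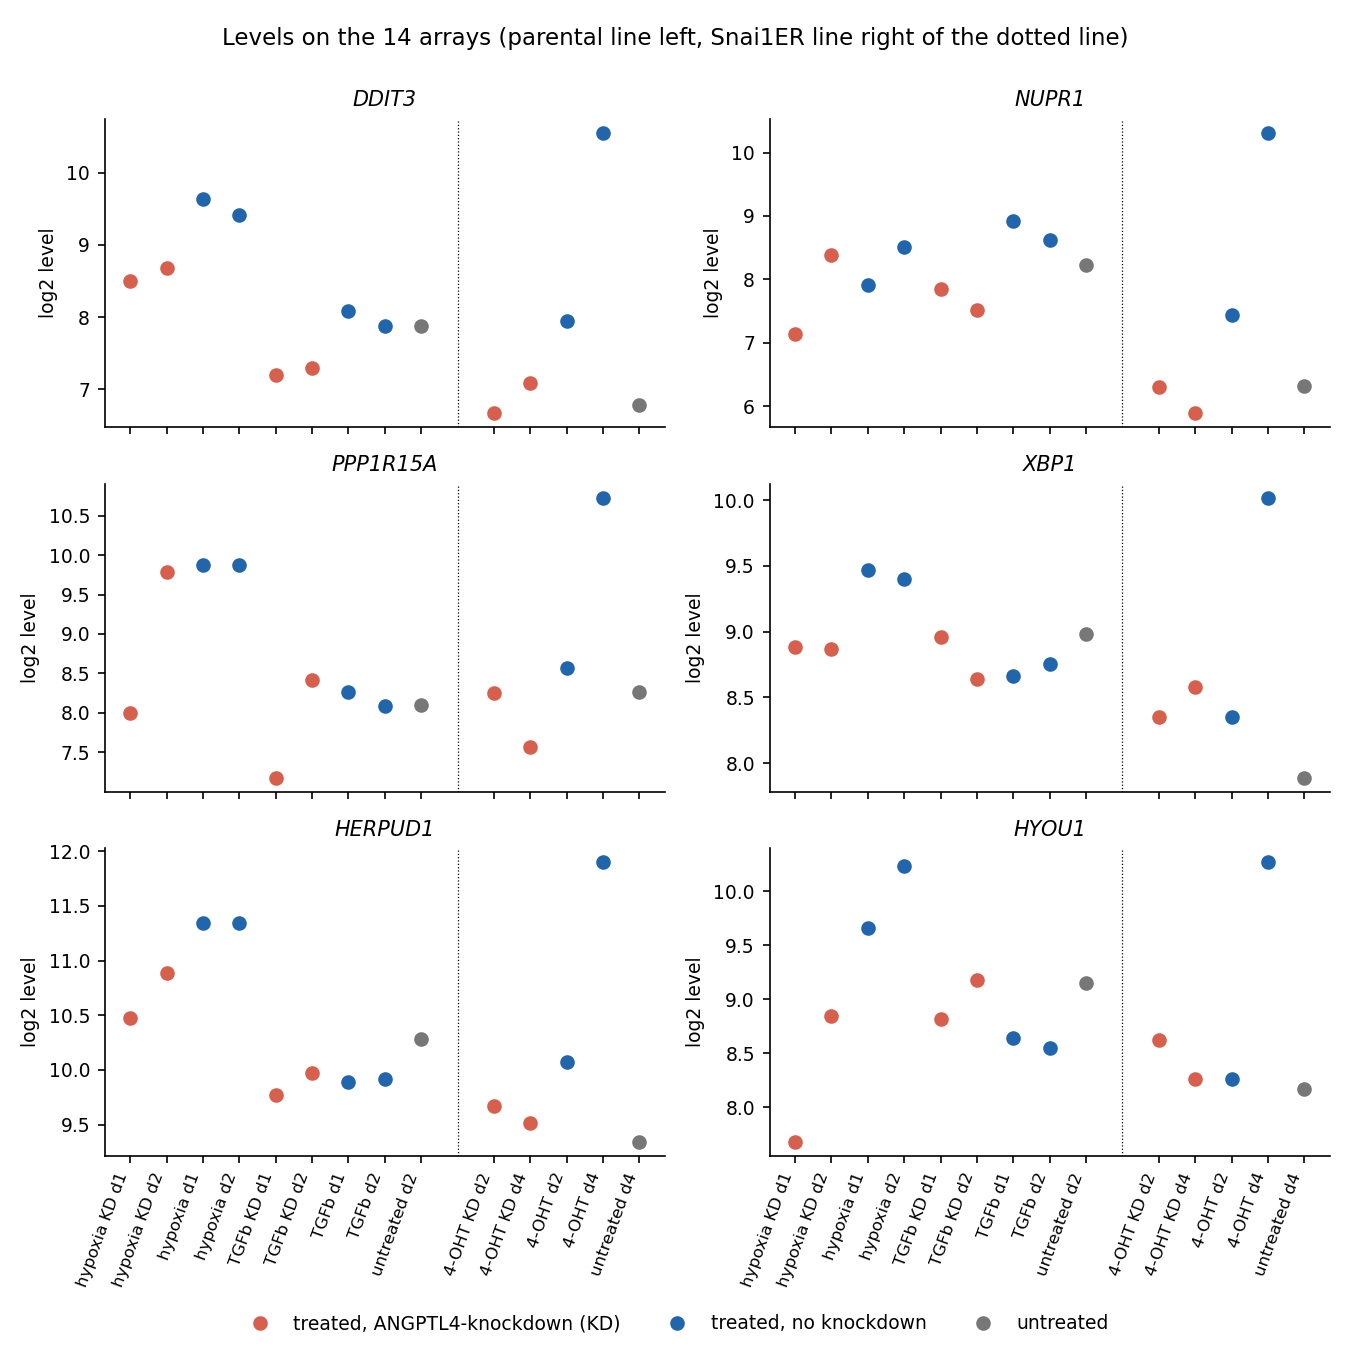
Log2 level (vertical axis) of 6 members on each of the 14 arrays (horizontal axis), MKN28 left and MKN28snai1ER right of the dotted line, with treated ANGPTL4-knockdown (KD) arrays in red, treated arrays without knockdown in blue and untreated arrays in grey. The 4-OHT day 4 array without knockdown is the highest of the 14 for all 6 genes, with DDIT3 at 10.55 against 7.09 on the knockdown array of the same day.

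The arrays with ANGPTL4-knockdown were compared with those without it at the same treatment and day. The arrays without knockdown are the same that were set against untreated above. A gene with a high value on such an array shows both a rise with treatment and a fall with knockdown. The differences are therefore not independent of those above. On 4-OHT 8 of 39 members were at least 1.5-fold lower with knockdown on both days and 0 were higher, against 7.48% of all genes lower and 2.19% higher. On day 4 alone 25 of 39 were lower, against 21.7% of all genes. The median difference that day was -0.98 for the ATF4 arm, -0.89 for the chaperone arm and -0.11 over all genes. On day 2 alone 8 of 39 were lower, against 14.6% of all genes. The day 2 medians were 0.03 for the ATF4 arm, -0.17 for the chaperone arm and -0.05 over all genes. DDIT3 was 6.67 on day 2 and 7.09 on day 4 with knockdown, against 7.94 and 10.55 without it. NUPR1 was 6.30 and 5.89 with knockdown, against 7.43 and 10.31 without. HERPUD1 was 9.67 and 9.51 with knockdown, against 10.07 and 11.90 without, and HYOU1 8.62 and 8.26 against 8.26 and 10.27. The knockdown arrays of day 4 lay near the untreated MKN28snai1ER array for these genes, whose levels there were 6.78, 6.32, 9.34 and 8.17. HERPUD1 and HYOU1 reached 1.5-fold on day 4 only. The 8 members lower on both days were DDIT3, NUPR1, ATF3, DNAJB9, CALR, MANF, KLHL24 and CREBRF. XBP1 was 8.35 and 8.58 with knockdown, against 8.35 and 10.02 without. SNAI1 itself was 9.78 and 8.74 with knockdown, against 9.55 on both days without. Whether its lower level bears on the day 4 differences was not tested.

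CHAC1, SESN2 and TRIB3 of the ATF4 arm went the other way on day 2. Set against the untreated MKN28snai1ER array, 2 of 39 members were at least 1.5-fold higher on both days with knockdown, CHAC1 (1.59 and 1.25) and SESN2 (0.80 and 0.62), against 1.77% of all genes. TRIB3 was 1.44 higher on day 2 and 0.54 on day 4. On day 2 these 3 genes were higher with knockdown than without it, at 7.44 against 6.93 for CHAC1, 6.69 against 5.99 for SESN2 and 8.36 against 7.66 for TRIB3. EDEM1 was likewise higher with knockdown on both days, at 8.37 and 8.32 against 7.60 and 7.77.

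On hypoxia 5 of 39 members were at least 1.5-fold lower with knockdown on both days, against 3.76% of all genes, and 0 were higher. They were DDIT3, DNAJB9, PDIA4, HYOU1 and DERL2. HYOU1 was 7.68 on day 1 and 8.85 on day 2 with knockdown, against 9.66 and 10.23 without, and DNAJB9 6.61 and 7.98 against 8.92 and 8.82. DDIT3 was 8.50 and 8.68 with knockdown, against 9.64 and 9.42 without and 7.88 untreated. The 2 days differed: 22 members were lower on day 1, against 22.2% of all genes, and 10 on day 2, against 9.9%. The day 1 knockdown array is the one that stood apart from the other 13. On day 2 PPP1R15A (9.79 with knockdown, 9.88 without), ATF3 (7.85 and 7.73), EIF2AK3 (9.50 and 9.33) and KLHL24 (9.71 and 9.54) lay at similar levels, and CREBRF was 10.08 with knockdown against 9.39 without.

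On TGFb ATF3 was at least 1.5-fold higher with knockdown on both days, at 6.38 and 6.21 against 5.71 and 5.62 without. NUPR1 was lower, at 7.84 and 7.51 with knockdown against 8.92 and 8.62 without, and CALR was 11.14 on both days with knockdown against 11.79 and 11.77 without. That is 1 of 39 higher and 2 of 39 lower, against 1.36% and 4.48% of all genes. As deposited, 13 members were higher and 1 lower, against 27.7% and 0.751% of all genes, and with arrays centred on their medians 10 were lower, against 23.7%.

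**Figure D3:**
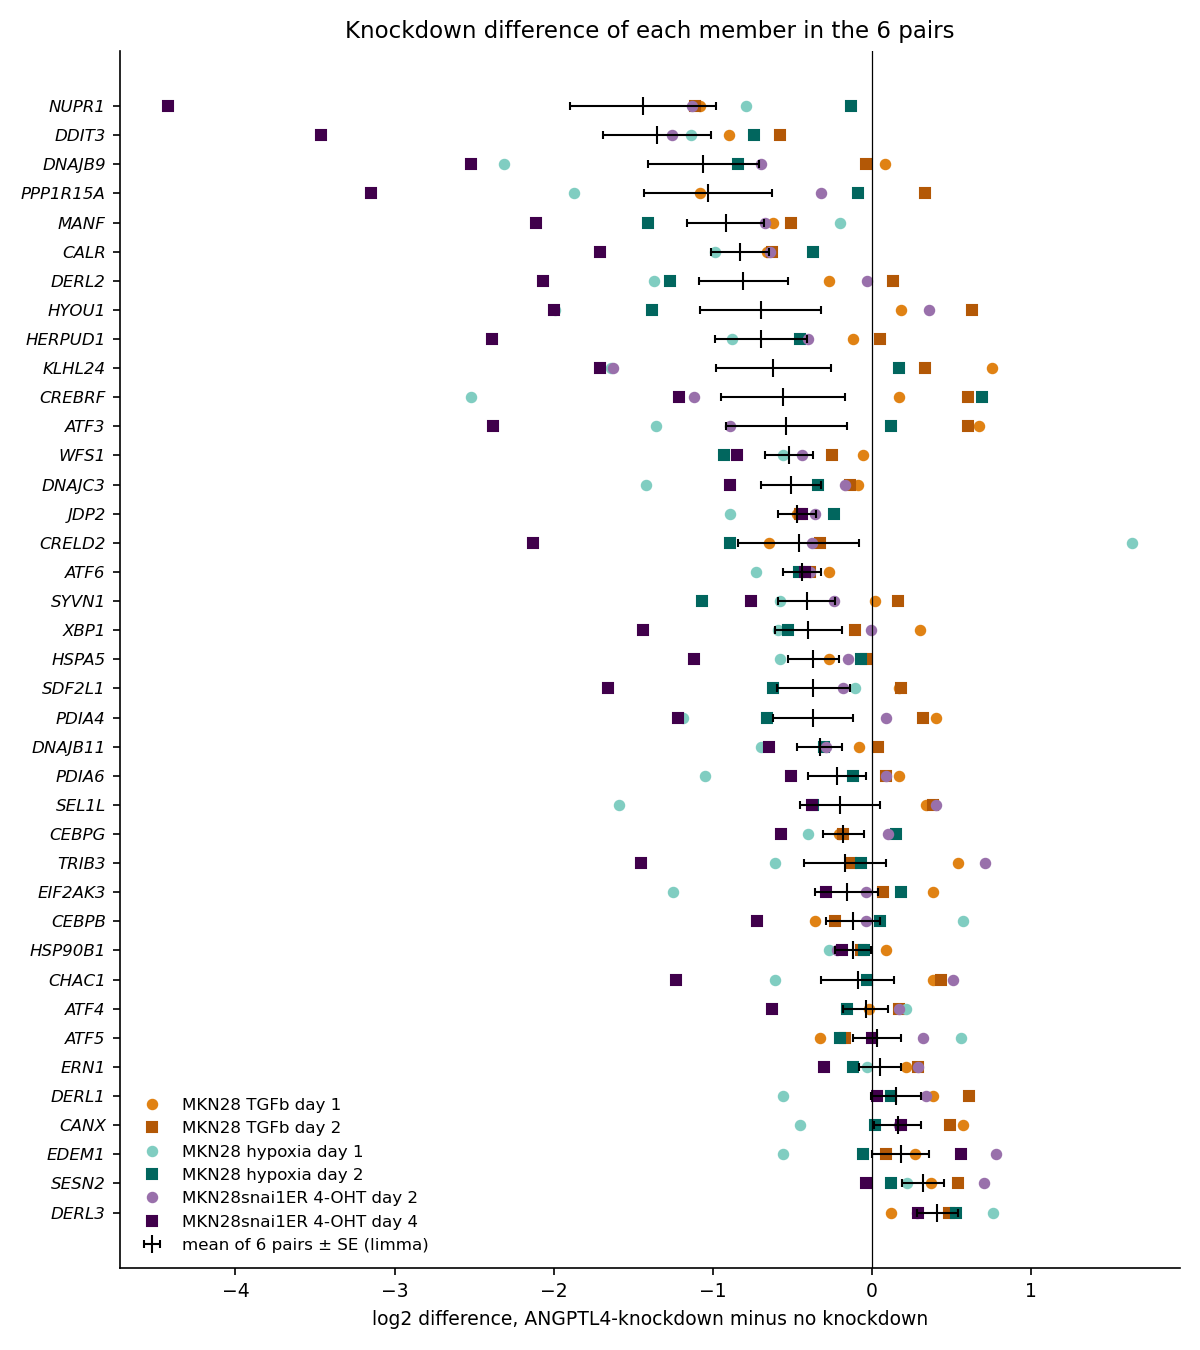
Log2 difference between ANGPTL4-knockdown and no knockdown (horizontal axis) for each of the 39 members (rows, ordered by the mean), with 1 symbol per treatment and day and the limma mean of the 6 pairs with its SE in black. NUPR1 and DDIT3 lay below 0 in all 6 pairs, and the 4-OHT day 4 pair gave the lowest value for both, at -4.42 and -3.46.

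Knockdown could be tested across the 6 pairs, which act as repeats over treatments and days. With limma, 97 of 11050 genes passed an adjusted p of 0.05, 10 higher (0.0905%) and 87 lower (0.787%) with knockdown, and 0 of the 39 members did. With arrays centred on their medians 12 members passed, among 1191 of the 11050 genes, and with array weights 8, among 1698 of the 11050. At an unadjusted p under 0.05, 15 members were lower and 2 higher, against 14.3% and 4.77% of all genes. The median over the members was -0.37, against -0.06 over all genes. With arrays centred on their medians it was -0.59, against -0.23 over all genes, and with array weights -0.12, against -0.06. On the quantile-normalized scale 9 members were lower in 6 of 6 pairs, against 8.3% of all genes. The smallest limma adjusted p among members was 0.0654, for CALR, whose log2 level averaged 10.95 with knockdown and 11.78 without, a difference of -0.83 (SE 0.18, lower in 6 of 6 pairs). DDIT3 differed by -1.35 (SE 0.34, limma adjusted p = 0.0981) and NUPR1 by -1.44 (SE 0.46, limma adjusted p = 0.157), both lower in 6 of 6 pairs. MANF (-0.92), WFS1 (-0.52), DNAJC3 (-0.51), JDP2 (-0.47), ATF6 (-0.44) and HSPA5 (-0.37) were also lower in 6 of 6 pairs, with limma adjusted p between 0.104 and 0.257. DERL3 was higher in 6 of 6 pairs at 0.41 (SE 0.13, limma adjusted p = 0.142) and SESN2 in 5 of 6 at 0.32 (SE 0.13, limma adjusted p = 0.244).

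The test depends on single pairs. Without the hypoxia day 1 pair 427 genes passed, MANF among them, while leaving out any other single pair left 0 to 5 genes and 0 members. Without the 4-OHT day 4 pair the median of the members was -0.19, and 8 were lower at an unadjusted p under 0.05. ATF4 itself averaged 9.23 with knockdown and 9.28 without (-0.04, SE 0.14), lower in 3 of 6 pairs, and ERN1 differed by 0.05 (SE 0.13).

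The difference between the lines in the knockdown effect was tested with an interaction term. All MKN28snai1ER pairs were on 4-OHT, and all MKN28 pairs were on hypoxia or TGFb with shorter exposures. Line, treatment, exposure time and any difference in knockdown method therefore cannot be told apart in this term. With limma 0 of 11050 genes passed an adjusted p of 0.05, while 10.7% had an unadjusted p under 0.05, and among members 5 did: NUPR1 (-2.00, SE 0.76), ATF3 (-1.64, SE 0.62), KLHL24 (-1.58, SE 0.59), DDIT3 (-1.52, SE 0.53) and EDEM1 (0.73, SE 0.30). A negative value means that the difference between knockdown and no knockdown was lower in MKN28snai1ER than in MKN28. Their limma adjusted p lay between 0.376 and 0.429. Without the hypoxia day 1 pair 36 genes passed, 2 of them members, KLHL24 and CREBRF, and without any other single pair 0 genes did. KLHL24 differed with knockdown by -1.63 and -1.71 on 4-OHT, by -1.64 and 0.17 on hypoxia and by 0.75 and 0.33 on TGFb.

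The untreated MKN28snai1ER array of day 4 was set against the untreated MKN28 array of day 2. In MKN28snai1ER 11 of 39 members were at least 1.5-fold lower and 0 higher, against 8.13% of all genes lower and 5.09% higher, and the median of the members was -0.32 against 0.03 over all genes. NUPR1 was 6.32 in MKN28snai1ER and 8.22 in MKN28, CHAC1 5.85 and 7.13, DDIT3 6.78 and 7.88, DNAJB9 6.28 and 7.39, and XBP1 7.89 and 8.98. HYOU1 (-0.99), HERPUD1 (-0.94), CREBRF (-0.93), EIF2AK3 (-0.75), TRIB3 (-0.63) and SYVN1 (-0.62) completed the 11. Line and day in culture cannot be told apart in these arrays. On day 2 of 4-OHT, DDIT3 in MKN28snai1ER (7.94) lay near its level in untreated MKN28 (7.88), and on day 4 it exceeded it. TRIB3 (7.66 against 7.55) and CREBRF (7.37 against 7.26) lay near theirs on day 2 as well. NUPR1 (7.43 against 8.22), CHAC1 (6.93 against 7.13) and HERPUD1 (10.07 against 10.28) lay below theirs. ATF3 (6.73 against 6.28) and KLHL24 (7.89 against 7.32) lay above theirs. On day 4 all of these exceeded their levels in untreated MKN28.

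Further genes of the pathway were counted from fixed lists. The lists are named after known regulators, and which factor acted on a listed gene was not tested. Only genes of a list that had a value and passed the filter were counted, such as 9 of 12 in signalling and cell death. Of 18 ATF4 targets in amino acid supply, 4 were higher on both days of 4-OHT, against 2.33% of all genes: PHGDH (1.22 and 2.25) and CTH (1.07 and 2.28), which act in serine and cysteine synthesis, the mitochondrial enzyme PCK2 (1.01 and 2.07) and the transporter SLC1A4 (0.70 and 2.12). On day 4 alone 15 of the 18 were higher, against 10.8% of all genes, with a list median of 0.91. With knockdown on 4-OHT 8 of the 18 were above the untreated array on both days, against 1.77% of all genes, among them the transporter SLC7A5 (1.65 and 1.43), PHGDH (1.97 and 0.80), SLC1A4 (1.02 and 1.35) and PCK2 (1.20 and 1.17). Set against 4-OHT without knockdown, SLC7A5 (1.19 and 0.73) and the cystine transporter SLC7A11 (1.03 and 0.84) were higher with knockdown on both days and CTH (-1.01 and -2.18) was lower, against 2.19% of all genes higher and 7.48% lower. The list median of that difference was 0.44 on day 2 and -0.71 on day 4, when 10 of the 18 were lower with knockdown, against 21.7% of all genes. On hypoxia 0 of 18 were higher on both days, against 3.02% of all genes, with medians of 0.16 and 0.18. On TGFb 0 were higher, against 2.47% of all genes, and 2 lower, against 3.27%, the glycine transporter SLC6A9 (-0.84 and -1.03) and PHGDH (-0.79 and -0.94).

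Of 9 ATF4 and CHOP targets in signalling and cell death, 3 were higher on both days of 4-OHT, against 2.33% of all genes, the mTORC1 inhibitor DDIT4 (2.37 and 3.54), the secreted stress cytokine GDF15 (1.48 and 3.07) and VEGFA (0.73 and 1.93). On hypoxia 5 of the 9 were higher, against 3.02% of all genes: the ER oxidase ERO1A (1.01 and 1.01), GDF15 (0.91 and 0.93), CDKN1A (0.84 and 0.81), DDIT4 (0.82 and 0.62) and the death receptor TNFRSF10B (0.66 and 0.64). On TGFb GDF15 (-1.35 and -1.29) and VEGFA (-0.80 and -0.91) were lower, against 3.27% of all genes. DDIT4 with knockdown on 4-OHT still differed from untreated by 1.61 and 2.74, while GDF15 differed by 0.25 and 0.47. All 3 were lower with knockdown than without it on both days of 4-OHT, against 7.48% of all genes, at -0.77 and -0.80 for DDIT4, -1.22 and -2.60 for GDF15 and -0.64 and -1.55 for VEGFA.

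Of 12 aminoacyl-tRNA synthetases under ATF4, 0 were higher on both days of 4-OHT, against 2.33% of all genes, and 5 on day 4, against 10.8%, led by WARS1 (1.78) and AARS1 (1.05), and CARS1 (0.72 on both days) was higher on hypoxia, against 3.02% of all genes. Of 27 further genes of ER folding and export, the ER-bound factor CREB3L2 (0.70 and 1.10) was higher on both days of 4-OHT, against 2.33% of all genes, and 10 were higher on day 4, against 10.8%. On hypoxia 4 of the 27 were higher, against 3.02% of all genes: the coat protein SEC24D (0.99 and 1.28), the ER prolyl isomerase FKBP14 (0.61 and 0.89), ARFGAP3 (0.63 and 0.72) and SELENOS (0.59 and 0.65). Of 9 cytosolic heat shock genes, the co-chaperone DNAJB1 (0.68 and 2.19) was higher on both days of 4-OHT, and 0 of 6 mitochondrial chaperones were, against 2.33% of all genes. Of 10 eIF2 kinases and eIF2 factors, 0 were higher on both days in any of the 3 treatments, against 2.33% to 3.02% of all genes, and EIF2B3, a subunit of the eIF2 exchange factor, was lower on hypoxia (-0.91 and -1.08), against 1.95%. Another subunit, EIF2B2, was the gene of these lists that passed the test of knockdown across the 6 pairs, against 0.787% of all genes lower. Its difference was -1.24 (SE 0.18, limma adjusted p = 0.0381, lower in 6 of 6 pairs). Without the hypoxia day 2 pair 0 of 11050 genes passed, so that EIF2B2 did not pass either.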

How the data were processed

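RNA of 14 cultures, 1 per condition, was hybridised to GeneChip Human Gene 1.0 ST arrays after Applause WT-Amp ST amplification. The authors deposited expression on a log2 scale, computed by RMA in Partek per the submitters' processing notes (versions not given in the sources used here). The line is MKN28 in the labels and MKN74 in the paper. Equal values on 2 or more arrays occur in 29.6% of the 33297 probe sets, and in 2 members. Here the deposited values were quantile-normalized between arrays (limma 3.58.1, R 4.3.3), because 2 TGFb arrays had lower medians. Of 21214 probe sets in the annotation, 19460 with 1 gene symbol were used and averaged per gene, ATF4 having 2. Genes whose mean reached the 40th percentile, 5.90, were kept.

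A gene counted as changed at 1.5-fold with the same sign on each of the 2 days. The knockdown effect was fitted with limma over the 12 treated arrays, with the 6 pairs as a block (5 residual degrees of freedom, 4 with the interaction) and Benjamini-Hochberg adjustment over 11050 genes. The pairs come from the design. These p-values measure agreement over treatments and days, not replicate cultures. The limma knockdown fit without the interaction was tested on simulated data. All members are accounted for, and of each further list up to 4 genes with the largest mean difference are named, plus those of counts of 5 or fewer. The members and lists were chosen with earlier results of these data known. Alternatives were the values as deposited, median centring, other filters, the brightest probe set, a 2-fold rule, single days, other limma settings and leaving out pairs. Precision is limited by the number of arrays. Promoter sequences are from RefSeq (GRCh38.p14), 53 entries for 36 members.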

Additional observations from a re-analysis of the deposited data

Results flagged for a closer look

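ATF3 differed with ANGPTL4-knockdown in opposite directions in 2 treatments, at least 1.5-fold on both days in each. On TGFb its mean difference over both days was 0.63, and on 4-OHT it was -1.63. ATF3 was 6.38 and 6.21 with knockdown on TGFb, against 5.71 and 5.62 without, and 5.84 and 5.91 with knockdown on 4-OHT, against 6.73 and 8.29 without. The difference between TGFb and 4-OHT was not tested itself. The interaction that sets MKN28snai1ER against all 4 parental pairs gave -1.64 (SE 0.62, limma adjusted p = 0.412). As no condition has more than 1 array, no sample could be compared with others of its condition.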

How the results depend on the processing

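Under the filters and the brightest probe set, counts of members kept to within 1.5 times their values. With a 2-fold rule, 6 members were higher on hypoxia, 4 were higher on 4-OHT, and with knockdown 2 were lower on hypoxia, 4 lower on 4-OHT, 1 lower and 0 higher on TGFb. The share of all genes was not counted under that rule. On the first day alone, 3 were lower and 1 higher on TGFb, against 4.4% and 4.13% of all genes. With knockdown 22 were lower and 2 higher on hypoxia, against 22.2% and 14.7%. On TGFb with knockdown 6 were lower and 2 higher, against 9.96% and 4.43%, and on 4-OHT 3 were higher, against 6.05%. On the last day alone, 30 were higher on 4-OHT and 3 lower on TGFb, against 10.8% and 4.71% of all genes. With knockdown 10 were lower and 1 higher on hypoxia, against 9.9% and 4.19%. With knockdown 25 were lower on 4-OHT, against 21.7%, and 4 higher on TGFb, against 3.51%. As deposited, 16 were lower on TGFb, against 32.4% of all genes. With knockdown there 13 were higher and 1 lower, against 27.7% and 0.751%, and on 4-OHT 1 was higher, against 2.38%. The deposited medians on TGFb were -0.36 and -0.51 for the ATF4 arm and -0.51 and -0.33 for the chaperone arm. Median-centred, 4 were higher and 1 lower on TGFb, against 22.5% and 1.86% of all genes, and 10 lower with knockdown there, against 23.7%. The TGFb medians on that scale were 0.44 and 0.32 for the ATF4 arm and 0.29 and 0.51 for the chaperone arm. On day 1 of hypoxia the chaperone arm had a median of 0.35. With the filter at the median of all genes, the ATF4 arm had a median of 2.00 on day 4 of 4-OHT, fewer of its genes being kept. In limma, the knockdown effect passed for 14 genes as deposited and for 1191 genes and 12 members median-centred. The counts were 326 genes and 1 member (CALR) with no replicate block. With a mean-variance trend they were 133 genes and 1 member (CALR), and with array weights 1698 genes and 8 members. The knockdown effect passed for 2 genes without both TGFb pairs. Leaving out 1 pair gave 0 to 427 genes and 0 to 1 members, the upper values without the hypoxia day 1 pair. The interaction passed for 5 genes as deposited, 7 without a filter, 2 with no replicate block and 3 with array weights, and, leaving out 1 pair, for 0 to 36 genes and 0 to 2 members. The cause was not tested. No direction of a called member reversed under any alternative run.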
